A study of Mus musculus with 2 samples.

Results

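The 9 genes described here encode the enzymes that make serine from glucose carbon and that move its one-carbon unit onto folate. They were chosen by name, as Phgdh, Psat1 and Psph for serine synthesis, Shmt1 and Shmt2 for serine hydroxymethyltransferase, and Mthfd1, Mthfd2, Mthfd1l and Aldh1l2 for the folate reactions that follow. All 9 were found among the 35275 genes of the count table, and all 9 had at least 10 reads over both libraries, as 14383 genes did. RNAseq compared untreated AML12 cells, the control, with AML12 cells made prematurely senescent by hydrogen peroxide. AML12 is a non-transformed hepatocyte line from a CD-1 mouse that carries a transgene for human transforming growth factor alpha, and it is grown with insulin, transferrin, selenium and dexamethasone, so both groups share that transgene and those supplements and both come from this single line. The labels give male liver at an age of 3 months for both groups. Per the methods of the study, senescent cells were exposed to peroxide daily for 6 days, 1 h each time, followed by 23 h without it, and the dose of 1 mM was lowered to 0.75 mM from the next day on. RNA of 3 samples was pooled into 1 library per condition, so each value below compares 1 library with 1 library, has no replicate check and carries no p-value.

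Serine is built in the cytosol from phosphoglycerate, an intermediate of glycolysis, in consecutive steps run by Phgdh, Psat1 and Psph. Serine hydroxymethyltransferase then splits serine into glycine and a methylene group bound to tetrahydrofolate, with Shmt1 mainly in the cytosol and Shmt2 in mitochondria. In mitochondria Mthfd2 oxidises that methylene group, and Mthfd1l releases it as formate, which leaves for the cytosol. There Mthfd1 binds formate to folate again for the synthesis of purines, thymidylate and methionine. Aldh1l2 instead oxidises the mitochondrial group to carbon dioxide with the formation of NADPH. Liver is a main site of folate and glycine metabolism, while Mthfd2 is known as an enzyme of embryonic and proliferating cells that is low in most adult tissue. Several of these genes are known targets of the transcription factor ATF4, which amino acid shortage and other stresses activate.

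The control library held 28021941 reads counted on 17403 genes, against 25738075 reads on 17592 genes after peroxide. Counts were scaled by the TMM method of edgeR, which evens out composition between libraries, and the median log2 ratio of all genes with at least 10 reads was then -0.02. All 10 hepatocyte markers were detected, with Hnf4a at 8187 and 7705 reads and Krt18 at 40512 and 60941, but 2 of them were called lower, Alb with 32076 and 2917 reads and Apoa1 with 2026 and 197. Of 6 macrophage markers 4 had at least 10 reads, and the summed levels of all 6, at 194 and 82.1 CPM (counts scaled to library size), came mostly from Cd14. Ptprc, with 27 and 76 reads, and Csf1r, with 15 and 40, were called higher, while Adgre1 was at 0 in both libraries. Of 6 fibroblast markers only Col1a1 had at least 10 reads, 21 and 1, and was called lower, with Col1a2, Col3a1 and Lum at 0, and of 5 endothelial markers none had 10. The part of these marker differences in the results below was not tested. In bulk RNA, fewer cells that express a gene cannot be told apart from less of its RNA per cell.

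Within the pathway, the libraries differed most in the mitochondrial enzyme Mthfd2. It was the only one of the 9 genes that was called higher, at 4.37-fold, and Shmt2 was 1.89-fold higher without reaching the threshold. The cytosolic counterpart of Shmt2, Shmt1, was 1.45-fold lower. Of the genes of serine synthesis, Phgdh and Psat1 had the highest levels of the 9 and were 1.15-fold and 1.05-fold higher, and Psph was 1.44-fold higher. A gene was called when its log2 ratio of senescent over control passed 1.5 in either direction, its 95% counting interval did not hold 0 and at least 10 reads were counted over both libraries. By this rule 1 of the 9 genes was called higher and 0 were called lower, beside 2.71% of all genes called higher and 5.6% called lower. The intervals are of the Clopper-Pearson type, computed on how the reads of a gene split between the libraries. They cover counting error only, since 1 library per condition gives no measure of variation between cultures. Without molecular identifiers PCR copies of 1 molecule are counted repeatedly, so the intervals may be too narrow even for counting error. Regardless of size, the interval lay wholly above 0 for 6 of the 9 genes and wholly below 0 for 1, while 34% of all genes lay above and 34.6% below. The median log2 ratio of the 9 genes was 0.20.

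**Figure D1:**
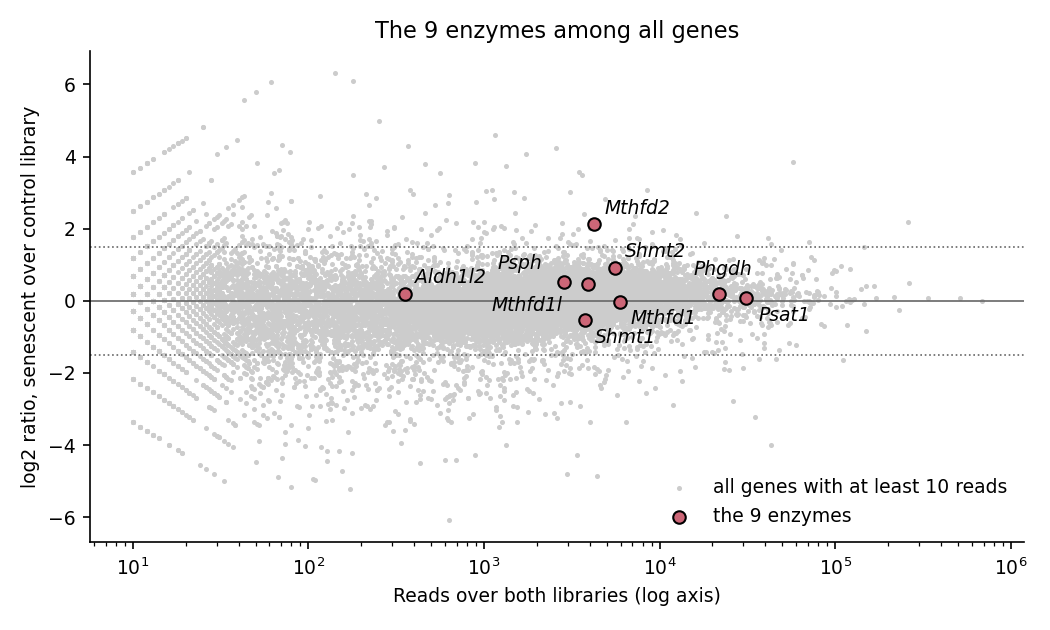
Each grey point is 1 of 14383 genes with at least 10 reads, with its reads over both libraries on a log axis and its log2 ratio of senescent over control on the other axis, and the red points are the 9 enzymes. Mthfd2 lies above the dotted line at 1.5, Shmt2 lies below it and Shmt1 has the lowest ratio of the 9.

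The first enzyme of serine synthesis, Phgdh, oxidises phosphoglycerate and commits it to the pathway. Phgdh (ENSMUSG00000053398, chromosome 3 from 98313170 to 98339990 of GRCm38) had 10984 control and 10736 senescent reads, and the log2 ratio was 0.20 (95% interval 0.16 to 0.24). Psat1 (ENSMUSG00000024640, chromosome 19 from 15904678 to 15947337), the transaminase of the next step, was counted 16481 and 14779 times, for a log2 ratio of 0.07 (0.04 to 0.10). The direction of this small difference depended on scaling, since it was -0.03 when libraries were scaled by total counts. Psph (ENSMUSG00000029446, chromosome 5 from 129765558 to 129787449), the phosphatase that releases free serine, was counted 1281 and 1574 times (log2 ratio 0.53, interval 0.42 to 0.63). All 3 genes of serine synthesis stayed under the threshold, with Psph the furthest from 0.

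Among the serine hydroxymethyltransferases the 2 libraries differed in opposite directions. Shmt2 (ENSMUSG00000025403, chromosome 10 from 127517123 to 127522444) had 2120 reads without and 3424 with peroxide (log2 ratio 0.92, interval 0.84 to 1.00). Shmt1 (ENSMUSG00000020534, chromosome 11 from 60788104 to 60811718) had 2357 reads without and 1390 with peroxide (log2 ratio -0.53, interval -0.63 to -0.44). The mitochondrial form was thus higher and the cytosolic form lower in the senescent library, both under the threshold.

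Mthfd2 (ENSMUSG00000005667, chromosome 6 from 83305691 to 83325908) encodes the mitochondrial methylenetetrahydrofolate dehydrogenase and cyclohydrolase. It rose from 893 control to 3333 senescent reads, by 2.13 on the log2 scale (2.02 to 2.24). A larger ratio was found for 176 of the 14383 genes. Mthfd1l (ENSMUSG00000040675, chromosome 10 from 3973118 to 4167081), the mitochondrial formate-releasing synthetase, was counted 1790 and 2098 times (log2 ratio 0.46, interval 0.37 to 0.55). Aldh1l2 (ENSMUSG00000020256, chromosome 10 from 83487450 to 83534140) had the fewest reads of the 9 genes, with 179 and 175, and its interval of -0.11 to 0.51 around a log2 ratio of 0.20 held 0, so no difference was detectable at this depth. The trifunctional cytosolic enzyme Mthfd1 (ENSMUSG00000021048, chromosome 12 from 76255298 to 76319803) was counted 3229 and 2715 times, and the interval of its log2 ratio of -0.02 also held 0 (-0.09 to 0.05). With total counts the ratio of Mthfd1 was -0.13, outside that interval. Mthfd2 thus differed between the libraries by more than Mthfd1l, which releases formate, or Mthfd1, which reuses it.

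**Figure D2:**
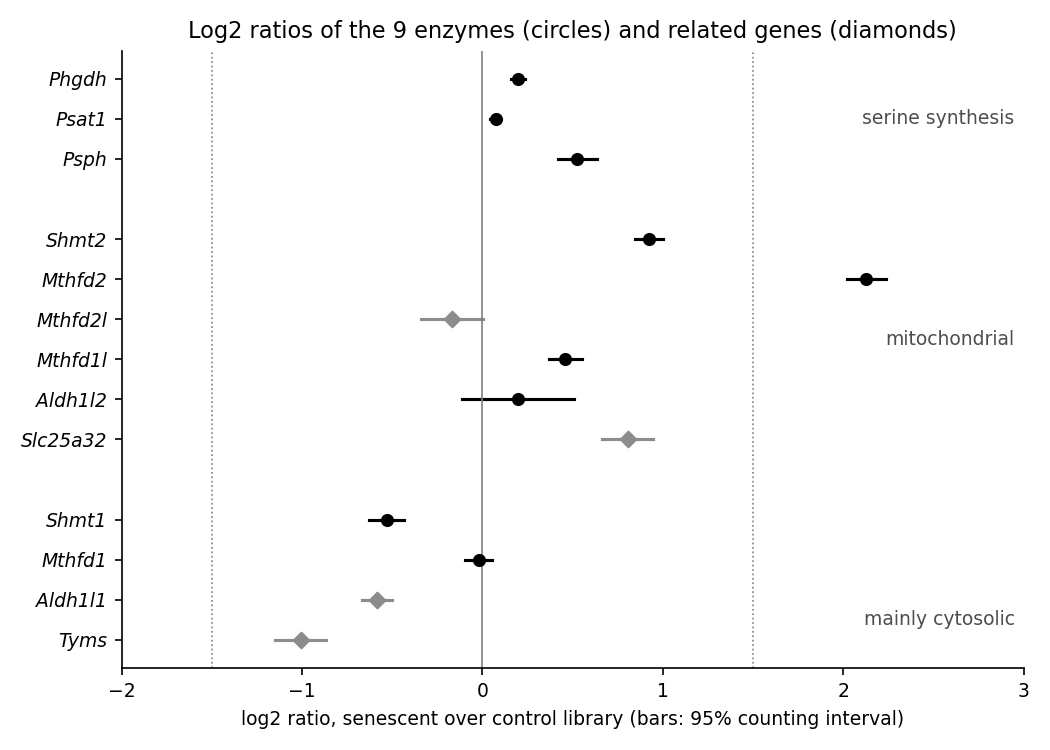
Points show the log2 ratio of senescent over control for the 9 enzymes (circles) and for genes of related or neighbouring reactions (diamonds), with bars for the 95% counting interval and dotted lines at the threshold of 1.5. Among the mitochondrial genes the bars of Shmt2, Mthfd2, Mthfd1l and Slc25a32 lie above 0 and that of Aldh1l2 holds 0, with Mthfd2l at -0.17, while Shmt1, Mthfd1, Aldh1l1 and Tyms, in the group marked mainly cytosolic, lie between -1.01 and -0.02 and the genes of serine synthesis between 0.07 and 0.53.

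Levels can be compared between genes only per length, here as RPKM, TMM-scaled reads divided by the length of all annotated exons merged. For Mthfd2 this length was 3487 bases, against 2085 for its longest coding transcript, and for Shmt2 it was 3109 against 2289. Levels and ranks therefore depend on this choice of length. In RPKM, Phgdh was at 152 in control and 174 in senescent cells, and Psat1 at 133 and 140. These were the highest levels of the 9 genes in both libraries. Serine synthesis took 76.1% of the summed level of the 9 genes in control and 69.8% in senescent cells. Psph, the last step of the same route, was far lower, at 10.2 and 14.7. Mthfd2 went from 8.81, the eighth level of the 9, to 38.5, the fourth. Shmt2 went from 23.4 to 44.4 and Shmt1 from 20.9 to 14.4, while Mthfd1 was at 25 and 24.6 and Mthfd1l at 13.9 and 19.1. Aldh1l2 was lowest in both libraries, at 0.820 and 0.940. Together the 9 genes took 0.140% of all control reads (exact binomial interval 0.139% to 0.142%) and 0.156% of all senescent reads (0.155% to 0.158%).

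**Figure D3:**
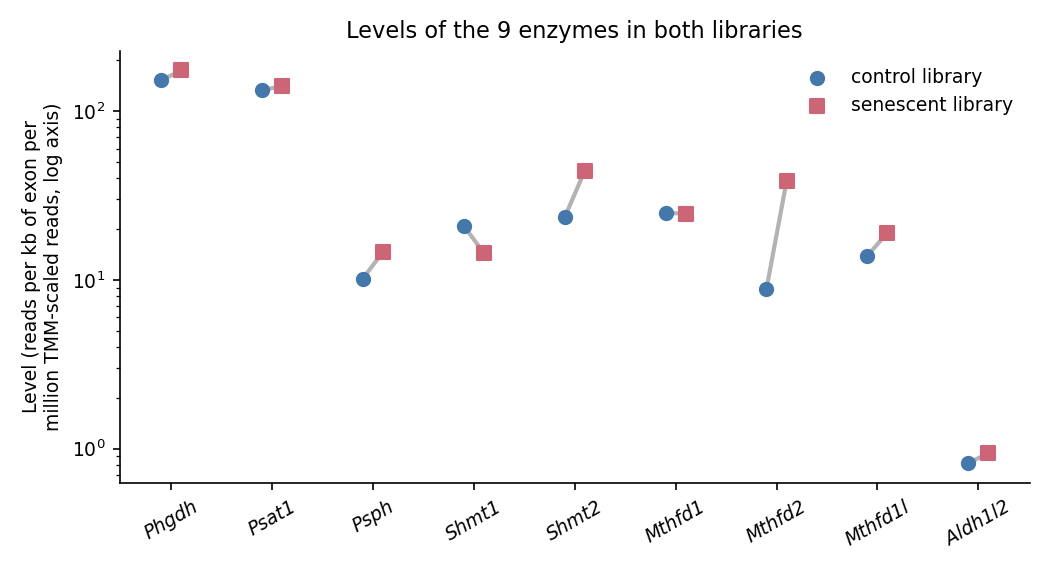
The level of each enzyme gene is shown in RPKM on a log axis, with a blue circle for the control and a red square for the senescent library. Phgdh and Psat1 lie above 100 in both libraries, Mthfd2 moves from 8.81 to 38.5, and the gap between Shmt1 and Shmt2, 20.9 and 23.4 in the control, widens to 14.4 and 44.4.

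The ratio of the reads of a pair of genes within a library does not depend on how the libraries are scaled. The pairs below join mitochondrial and cytosolic forms of an enzyme, or consecutive steps, and were chosen after the values of single genes had been seen. Shmt2 had 0.899 reads for each read of Shmt1 in control and 2.46 in senescent cells, a 2.74-fold change of the ratio (95% exact conditional interval 2.51 to 2.99). Mthfd2 had 0.277 reads for each read of Mthfd1 in control and 1.23 in senescent cells, a 4.44-fold change (4.05 to 4.86). Per length of exon, the ratio of Shmt2 to Shmt1 was 1.12 and 3.08, over 1 in both libraries, and that of Mthfd2 to Mthfd1 was 0.352 and 1.56. Mthfd1l changed against Mthfd1 by 1.39-fold (1.28 to 1.51), and Mthfd2 against Mthfd1l by 3.18-fold (2.89 to 3.51). The ratio of Aldh1l2 to its cytosolic relative Aldh1l1 changed by 1.72-fold (1.37 to 2.14), from 0.0565 to 0.0970, and in this pair the ratio moved with the reads of Aldh1l1 more than with those of Aldh1l2. Mthfd2l encodes a further mitochondrial form of the Mthfd2 reaction and had 649 and 492 reads, with a log2 ratio of -0.17 (-0.34 to 0.00). The ratio of Mthfd2 to Mthfd2l changed by 4.92-fold (4.28 to 5.67).

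**Figure D4:**
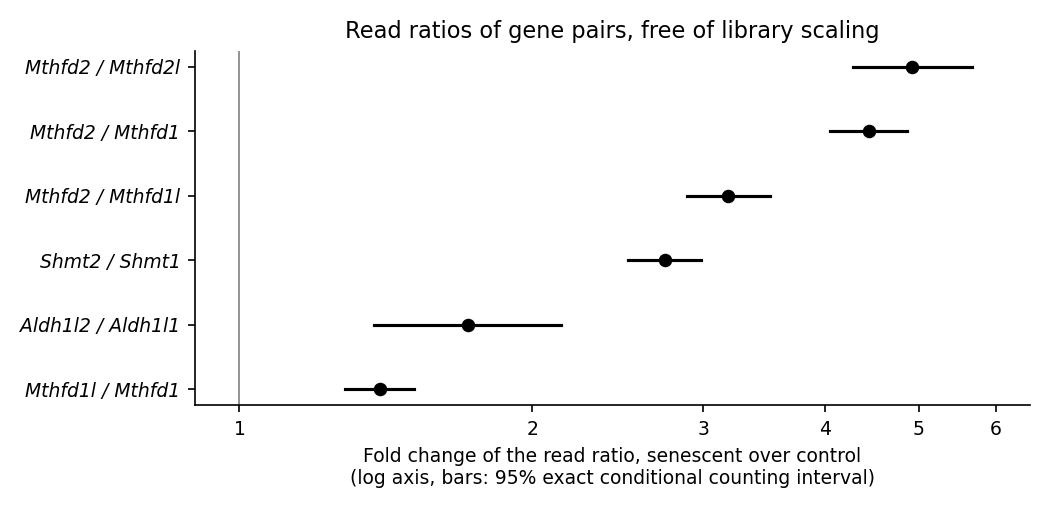
Each point is the fold change, senescent over control, of the ratio of reads between a pair of genes, on a log axis with 95% exact conditional intervals that cover counting error only. All 6 intervals lie above 1, from 1.39 for Mthfd1l over Mthfd1 to 4.92 for Mthfd2 over Mthfd2l.

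Such pairs are only meaningful where reads can be told apart. The longest stretch that the longest coding transcripts of each pair of paralogs share was read from the GENCODE M21 transcripts, and these stretches are shown because they are the longest exact match through which reads of a pair could be confused. The shared runs were 19 to 22 bases long. The read length is not given in the sources used here.
Shmt1 and Shmt2: CCCAAGACTGGCAAAGAGA
Mthfd1 and Mthfd1l: GGAACGATGAGCACAATGCC
Mthfd2 and Mthfd2l: CCCATGACCGTGGCCATGCT
Aldh1l2 and Aldh1l1: CTCAACGTGCTCCCCTTCTGCA

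Other shared sequence bears on some values. Of the windows of 100 bases in the longest Phgdh transcript, 36.3% are also found in the pseudogene Gm7901, which was listed at 0 reads in both libraries, and further pseudogenes hold up to 4.91%, so reads of Phgdh that match more than 1 place may have been lost from or split off its count. The exons of Psph overlap those of Cct6a on the opposite strand over 452 bases, and Cct6a had 9063 and 10033 reads. Those of Shmt1 overlap Smcr8 on the opposite strand over 184 bases, and Smcr8 had 1596 and 2036 reads. Those of Aldh1l2 overlap D10Wsu102e on the opposite strand over 1056 bases, and that gene had 2012 and 2736 reads. The use of strand in the counting is not given in the sources used here, so reads from the overlapping stretches may not have been told apart. The merged exons of Psph, Shmt1 and Aldh1l2 are 4329, 3883 and 7503 bases long, so most of each gene lies outside them. The exons of Mthfd2 and Mthfd1l overlap no other annotated gene, and those of Shmt2 overlap only Ndufa4l2, with 0 reads in both libraries.

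The remaining enzymes that interconvert folates were mixed. Of 10 other folate enzymes 0 were called higher and 1 was called lower, beside 2.71% and 5.6% of all genes. The median log2 ratio of these 10 was -0.14. The gene called lower was Ftcd, a folate enzyme of histidine breakdown, with only 23 and 4 reads. With total counts 2 were called lower, as Mthfs, which acts on formyl folate and had 84 and 26 reads, moved from -1.43 to -1.53. Aldh1l1, which removes formyl groups from cytosolic folate, had 3170 and 1805 reads (-0.58, interval -0.67 to -0.50). Slc25a32, the carrier of folate into mitochondria, had 679 and 1012 reads (0.80, interval 0.66 to 0.95), and the plasma membrane carrier Slc19a1 had 947 and 1230 (0.61, interval 0.48 to 0.73). Of 6 genes of folate uptake and transport, 3 passed the filter on reads and 0 were called. Slc25a32 and Slc19a1, like other genes below that were not called, were named after their values had been seen.

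Of the genes for reactions that supply or use serine and glycine, some were called in each direction. Over all genes, 2.71% were called higher and 5.6% lower. Among the 12 transporters, 9 passed the filter and 1 was called higher. This was Slc1a4, an exchanger of serine, alanine and cysteine, with 427 and 1212 reads (log2 ratio 1.73, interval 1.57 to 1.90). The glycine transporter Slc6a9 had 355 and 756 reads (1.32, interval 1.14 to 1.51), and Sfxn1, the carrier of serine into mitochondria, had 5016 and 3811 (-0.17, interval -0.23 to -0.11). Of the 7 genes of the glycine cleavage system, 0 were called. Its lowest ratio was that of the aminomethyltransferase Amt, with 103 and 32 reads (-1.43, interval -2.08 to -0.87), which passed the threshold with total counts (-1.54). Gldc, its decarboxylase, had 27321 and 15188 reads (-0.62, interval -0.65 to -0.59). The read ratio of Shmt2, which forms glycine in mitochondria, to Gldc, which breaks it down there, changed by 2.91-fold (2.74 to 3.08). Of the 13 genes for use of serine and glycine that passed the filter, 2 were called lower. These were Glyctk, a glycerate kinase, with 255 and 34 reads (-2.64, interval -3.24 to -2.16), and Gnmt, which methylates glycine, with 62 and 15 (-1.76, interval -2.74 to -0.99).

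One-carbon units leave the pathway for nucleotides and for methyl groups. Over all genes, 2.71% were called higher and 5.6% lower, and 34% and 34.6% had intervals above and below 0. Of 14 genes of purine and thymidylate synthesis 0 were called, but the interval lay above 0 for 12 and below 0 for 2. The median log2 ratio of these genes was 0.44. Gart, which uses formyl-tetrahydrofolate to build the purine ring, had 4490 and 6169 reads (0.69, interval 0.63 to 0.74). Atic, which adds the last formyl group, was counted 5046 and 6599 times (0.62, interval 0.56 to 0.67). Tyms, the thymidylate synthase, had the lowest ratio of this list, at -1.01 (1395 and 592 reads, interval -1.15 to -0.87). Of the 10 genes of the methionine cycle and transsulfuration that passed the filter, 1 was called higher and 1 lower, with a median of -0.05. The gene called lower was Cbs, which joins serine to homocysteine, with 661 and 149 reads (-1.91, interval -2.19 to -1.66). The gene called higher, the liver methionine adenosyltransferase Mat1a, rested on 5 and 26 reads (2.38, interval 1.20 to 4.35). Mtrr, which reactivates methionine synthase, had 591 and 1204 reads (1.25, interval 1.11 to 1.40).

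The gene for ATF4 itself was higher without being called. Atf4 had 4820 control and 10151 senescent reads (1.30, interval 1.25 to 1.35). The ATF4 and integrated stress response list had 25 genes that passed the filter. Of these, 4 were called higher and 2 lower, beside 2.71% and 5.6% of all genes. The interval lay above 0 for 20, beside 34% of all genes, and the median log2 ratio of the list was 0.86. The genes called higher were Chac1, which breaks down glutathione, with 251 and 883 reads (2.04, interval 1.84 to 2.25), the cystine transporter Slc7a11 with 256 and 874 (interval 1.80 to 2.21), the cationic amino acid transporter Slc7a1 with 1744 and 4942 (1.73, interval 1.65 to 1.81), and Stc2, a secreted glycoprotein, with 94 and 266 (1.72, interval 1.39 to 2.09). The genes called lower were Ddit4, an inhibitor of mTOR, at -2.21, and Herpud1, a component of endoplasmic reticulum degradation, at -1.52. Atf5 had 6426 and 9568 reads (0.80, interval 0.76 to 0.85), Ddit3 had 874 and 936 (0.33, interval 0.19 to 0.46), and the interval of Atf3, with 231 and 225 reads, held 0. Asns, the asparagine synthetase, had 2536 and 5077 reads (1.23, interval 1.16 to 1.30). Beside this list, Mthfd2 at 2.13 lay above its highest ratio, that of Chac1, and Shmt2 at 0.92 lay above its median of 0.86. The rest of the 9 genes lay under that median, from -0.53 for Shmt1 to 0.53 for Psph. Of other regulators, Myc had 2239 and 4382 reads (1.20, interval 1.12 to 1.27) and Nfe2l2 had 5407 and 3940 (-0.23, interval -0.29 to -0.17).

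**Figure D5:**
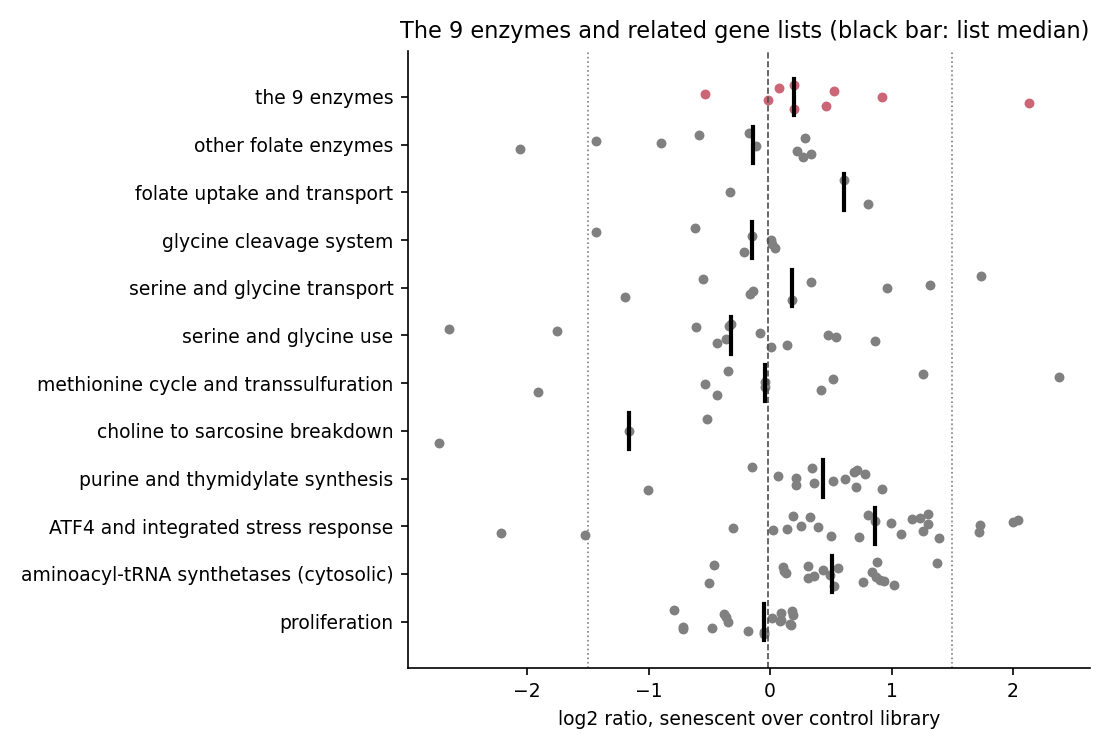
Each point is the log2 ratio of 1 gene with at least 10 reads, in the 9 enzymes (red) or in a list of related genes (grey). Black bars mark list medians, the dashed line the median of all genes at -0.02 and dotted lines the threshold of 1.5, and the median is highest for the ATF4 list, at 0.86.

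Promoter sequence was read from RefSeq on GRCm38.p6, in windows from 250 bases before to 50 after each annotated start. Of the 9 genes 8 were matched, with 9 promoters, and Aldh1l2 was not. The core of the ATF4 composite site, TGATGNAA on either strand, was found in 0 of these 9 promoters, and in 1304 of all 32851 promoters (3.97%). The same letters were found in 11 of 28 promoters of the ATF4 and integrated stress response list (39.3%) and in 5 of 12 of the aminoacyl-tRNA synthetases (41.7%). Promoters were matched for 24 of the 26 genes of the ATF4 list but for only 12 of the 20 synthetase genes. The palindromic E-box CACGTG was also found in 0 of the 9 promoters, beside 7.15% of all promoters. Of all listed genes with at least 10 reads that held the letters, 2 had a log2 ratio below 0 after TMM scaling. These were Herpud1, called lower at -1.52, and the purine synthesis gene Prps1, at -0.15. Atf3, Nupr1 and Vldlr also held the letters, at log2 ratios of 0.19, 0.02 and 0.25. The intervals of Atf3 and Nupr1 held 0, and Nupr1 was at -0.08 with total counts. Whatever their letters, 20 of 25 genes of the ATF4 list and 18 of 20 synthetase genes had intervals above 0. Whether the letters go with the ratios was not tested. The letters were not found for Slc7a1 and Stc2, which were called higher. These counts describe letters in a fixed window and not sites, and they say nothing of sequence further away. The serine transporter Slc1a4 was 1 of the 10 genes for transport of serine and glycine with a promoter in the table, and the only one of them that held the motif. Windows of 60 bases are shown for Slc1a4 and for the ATF4 list genes Slc7a11 and Chac1, which were called higher as Mthfd2 was, with the motif in capitals on either strand.
Slc1a4 (chr11:20332684-20332743, minus strand): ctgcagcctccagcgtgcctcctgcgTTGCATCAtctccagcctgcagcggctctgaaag
Slc7a11 (chr3:50443646-50443705, minus strand): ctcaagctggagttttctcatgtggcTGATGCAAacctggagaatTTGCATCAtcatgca
Chac1 (chr2:119351023-119351082, plus strand): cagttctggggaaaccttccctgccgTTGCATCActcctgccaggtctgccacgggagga

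For comparison, the 250 bases before the start are shown for Mthfd2, the gene with the highest ratio of the 9, and for Shmt1, the gene with the lowest. Capitals mark CCAAT boxes (CCAAT on either strand) and GC boxes (GGGCGG on either strand). The Mthfd2 window holds 3 CCAAT boxes and no GC box, and the Shmt1 window holds 1 CCAAT box and 4 GC boxes, of which 2 overlap. The Mthfd2 start in RefSeq lies inside the span that GENCODE gives the gene, which ends at 83325908. That of Shmt1 also lies inside its span, which ends at 60811718. Both Psat1 windows, which reach to 15924872 and 15925309, lie inside a span that ends at 15947337. Windows therefore do not always lie at the ends of the gene models used for lengths. Over the whole windows, 6 of the 9 promoters held a CCAAT box, beside 37.4% of all promoters, 5 of 9 held a GC box, beside 35.7%, and 1 of 9, that of Phgdh, held the TATA box TATAAA, beside 13.6%. Like Mthfd2, a promoter of Psat1, at a log2 ratio of 0.07, held 3 CCAAT boxes and no GC box. The other Psat1 promoter held 2 GC boxes and no CCAAT box, and that of Psph, at 0.53, held 3 GC boxes and 2 CCAAT boxes. Whether these boxes go with the ratios was not tested.
Mthfd2 (chr6:83317605-83317854, minus strand): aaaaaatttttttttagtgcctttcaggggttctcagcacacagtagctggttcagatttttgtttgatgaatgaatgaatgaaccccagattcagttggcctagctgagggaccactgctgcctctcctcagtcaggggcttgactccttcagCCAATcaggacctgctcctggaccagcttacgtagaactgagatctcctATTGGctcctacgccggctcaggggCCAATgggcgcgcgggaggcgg
Shmt1 (chr11:60811266-60811515, minus strand): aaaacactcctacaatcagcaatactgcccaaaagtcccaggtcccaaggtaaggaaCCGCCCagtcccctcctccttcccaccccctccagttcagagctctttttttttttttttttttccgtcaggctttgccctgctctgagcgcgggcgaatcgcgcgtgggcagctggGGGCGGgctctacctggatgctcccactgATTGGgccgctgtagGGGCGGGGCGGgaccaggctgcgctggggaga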

How the data were processed

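Libraries were made from poly(A)-selected, randomly primed RNA, 1 per condition, and were assigned by the initials of the sample titles. The authors deposited raw counts of reads per Ensembl gene. The submitters' processing notes name CASAVA, STAR, DESeq2, edgeR and mm10 without roles, and the counting tool and annotation are not given in the sources used here. Names, positions and exon lengths came from GENCODE M21 (GRCm38, the build of mm10), which paired 34490 of 35275 genes with a symbol. Genes without a symbol took 0.113% and 0.109% of the reads. Depth was 28021941 control and 25738075 senescent reads.

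Counts were scaled by TMM in edgeR 4.0.16 (R 4.3.3), with factors of 1.04 and 0.964, and a prior count of 1 in proportion to library size was added before log2 ratios were taken. The threshold of 1.5 follows the methods of the study. Alternatives used DESeq2 1.42.0 size factors, upper quartiles or total counts (which shifted the all-gene median by -0.11), other prior counts, filters and thresholds, and intervals widened for an assumed coefficient of variation. Intervals were computed in Python 3.11.15 with scipy 1.17.1, and the method was tested on simulated data. No test of edgeR or DESeq2 could be run, since each condition has 1 library. The 9 genes and the lists, drawn from general knowledge, were chosen with earlier results of these data known. Of each list, up to 4 called genes in the direction of its median and up to 2 against it were to be named, with fixed regulators and isoenzymes. Slc25a32, Slc19a1, Slc6a9, Sfxn1, Gart, Atic, Prps1, Mtrr, Asns, Amt, Mthfs, Nupr1 and Vldlr were named after their values were seen. So were the genes of the closing section that were not called. Protein sequences were not used here. Some genes that the naming rule covers are not reported here.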

Additional observations from a re-analysis of the deposited data

How the results depend on the processing

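Over 11 alternatives the count of the 9 genes called higher stayed at 1, which was Mthfd2, and the count called lower stayed at 0. The median log2 ratio of the 9 genes was 0.0897 with total counts and 0.20 with TMM, and the intervals of 5 genes then lay above 0 and of 3 below, against 6 and 1. Over scalings and prior counts the log2 ratio of Mthfd2 ranged from 2.02 to 2.13, that of Shmt2 from 0.81 to 0.92 and that of Shmt1 from -0.64 to -0.53, and 1 of 45 such ratios changed sign, that of Psat1 with total counts (-0.03). Of the other genes of the pathway lists, 6 were called higher and 7 lower, against 17 and 12 at a threshold of 1, and 2 and 4 at a threshold of 2, by construction of the rule. The count of all genes called, 390 higher and 805 lower, was 259 and 602 with a prior count of 5, 141 and 395 with at least 100 reads, 261 and 595 at an assumed coefficient of variation of 0.4, 732 and 1435 at a threshold of 1, and 219 and 460 at a threshold of 2. With an assumed coefficient of variation of 0.4 between cultures the intervals of 8 of the 9 genes held 0, including Shmt2 (-0.68 to 2.52) and Shmt1 (-2.13 to 1.07), and only that of Mthfd2 (0.53 to 3.73) did not. At 0.1 the intervals of 4 lay above 0 and of 1 below. Without replicates the true variation is not known. Ftcd, Mat1a and Gnmt, with under 100 reads, rest on few counts, and Ftcd was no longer called with a prior count of 5. No paired analysis was possible because each condition has 1 library.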

Other observations

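The aminoacyl-tRNA synthetases, which load amino acids onto tRNA and many of which are known ATF4 targets, were mostly higher by less than the threshold. Of 20 cytosolic synthetase genes 0 were called, and the median log2 ratio was 0.51. The interval lay above 0 for 18 and below 0 for 2, beside 34% and 34.6% of all genes. Sars, which charges tRNA with serine, had 6819 and 11131 reads (0.94, interval 0.89 to 0.98), Gars, which charges it with glycine, had 8462 and 9752 (0.43, interval 0.39 to 0.48), and Cars, for cysteine, had the highest ratio with 3240 and 7162 (1.37, interval 1.31 to 1.43). Of the mitochondrial enzymes of proline synthesis, Aldh18a1, which starts it from glutamate, had 1923 and 4291 reads (1.39, interval 1.31 to 1.47), and Pycr1, which ends it, had 236 and 334 (0.73, interval 0.49 to 0.98). Aldh18a1 and Pycr1 belong to the ATF4 and integrated stress response list and are already in its counts and median above.

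The genes listed for breakdown of choline and sarcosine lay the other way where they could be measured. Of these 5 genes 3 passed the filter, Aldh7a1, Sardh and Pipox, and their median log2 ratio was -1.16. Of the 3, 1 was called lower, beside 5.6% of all genes. Chdh, with 0 and 2 reads, and Dmgdh, with 0 in both libraries, did not pass, so these values do not describe the whole route from choline. Pipox, the peroxisomal sarcosine oxidase, fell from 533 to 68 reads (-2.72, interval -3.13 to -2.37), and Sardh, the mitochondrial sarcosine dehydrogenase, had 1421 and 542 (-1.16, interval -1.31 to -1.02). Of 18 proliferation genes 0 were called, with a median of -0.05 and a range from -0.79 for Mki67 to 0.19 for Cdk1. The interval lay above 0 for 5 of them and below 0 for 8, beside 34% and 34.6% of all genes. The part of proliferation in the ratio of Mthfd2 was not tested.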
